A study of Sus scrofa with 12 samples.

Results

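The 6 genes described here code for proteins of the thin filament and its anchoring in striated muscle: the sarcomeric actins ACTA1 and ACTC1, the actin cross-linker ACTN3 and the tropomyosins TPM1, TPM2 and TPM3. They were chosen by name out of 28210 RefSeq genes placed on the pig chromosomes (Sscrofa11.1). For each gene the RNA listed under its name or lying inside it, all RNAs on DNA bins within 5 kb of its ends and the loops anchored 1 kb or less from either end were taken in every library. The material was longissimus muscle of 2-week-old male piglets of 2 breeds, Large White (LW), labelled as a commercial lean breed, and Meishan (MS), labelled as a Chinese local breed. No agent or genetic change was given to either breed. Each breed had 2 libraries of BL-HiChIP, which joins DNA ends close together in the nucleus and enriches them with an antibody to H3K27ac, an acetylation of histone H3 found at promoters and enhancers in use. Each breed also had 2 libraries of GRID-seq, which links RNA to the DNA it lies on. The sources used here do not say whether the libraries of a breed came from separate animals, so p-values measure only the spread between these libraries, which may be technical.

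In striated muscle the thin filament is a polymer of actin with tropomyosin lying along its groove, where it blocks or frees the sites for myosin under the control of troponin. ACTA1 is the main actin of adult skeletal muscle, and ACTC1 is the heart actin that skeletal muscle also makes before and around birth. TPM1 and TPM2 code for the alpha and beta tropomyosins and TPM3 for the tropomyosin of slow fibres, while ACTN3 is the alpha-actinin of fast fibres and ties thin filaments together at the Z-disc.

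The tissue label was checked against marker lists. Of 10 skeletal muscle fibre markers 7 were listed as chromatin RNAs in each library, with 131224 to 143701 RPM in LW and 110468 to 120594 in MS (RPM, reads per 1000000 listed reads), and MYH1, MYH2 and MYH4 were not listed under those names. No marker of heart muscle, smooth muscle, fat cells, endothelium, immune cells, satellite cells or red blood cells was listed, and 2 or 3 of 4 fibroblast collagen or matrix genes were, at 923 to 1495 RPM. The lists held 8181721 and 9943666 RNA reads in LW against 7172517 and 9381797 in MS, and 57028 and 43282 loops in LW against 45061 and 33353 in MS. The smallest listed RNA had 432 to 455 reads, so an RNA missing from a library was not shown to be absent from it. In bulk tissue fewer fibres of a type and less RNA per fibre cannot be told apart.

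All 6 genes had listed RNA in at least 2 libraries, and 4 of them, ACTA1, ACTN3, TPM1 and TPM2, in every library. The order of the levels per kb of listed gene in LW replicate 2, the one library that listed all 6, was TPM1, TPM2, ACTA1, ACTN3, ACTC1 and TPM3, at 149, 129, 82.5, 46.8, 13.8 and 11.2 RPM per kb. The other libraries kept this order for the genes they listed, except that TPM1 and TPM2 changed places in MS. The place of ACTA1 depends on its listed length, which is far longer than its RefSeq gene: over the RefSeq lengths it came first in each library, at 1188 to 1378 RPM per kb, if all its reads lay in that gene.

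**Figure D1:**
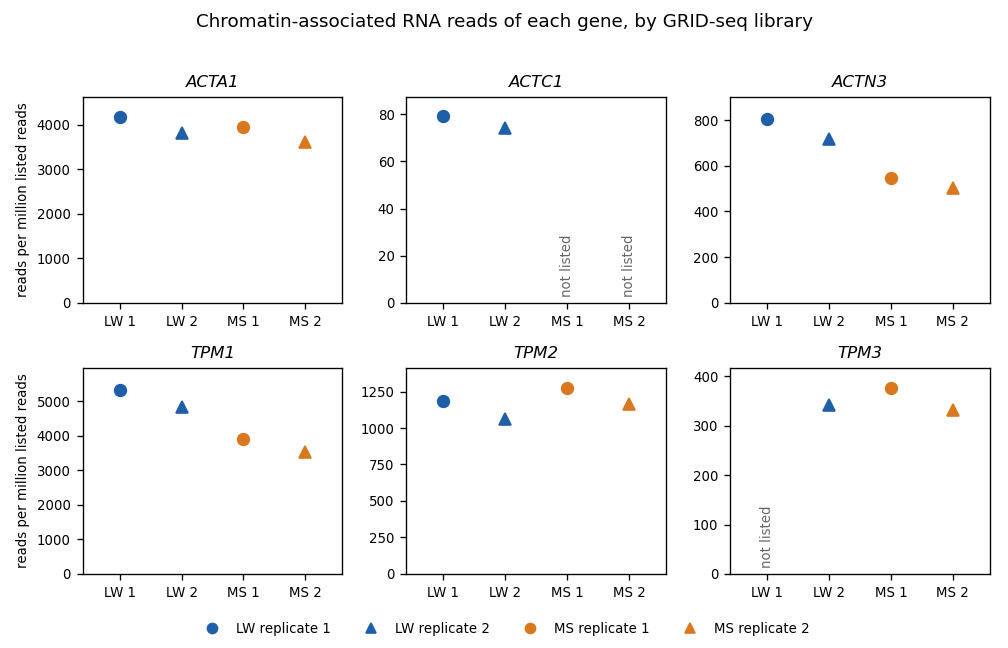
Chromatin-associated RNA of each gene in RPM (vertical axis, linear from 0) in the 4 GRID-seq libraries (horizontal axis), 1 point per library and no error bars. ACTN3 and TPM1 lie higher in both LW libraries, ACTA1 and TPM2 overlap between breeds, ACTC1 is listed only in LW and TPM3 is missing from LW replicate 1.

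ACTA1 lies at chr14:60412651-60415687. Its RNA was listed under an Ensembl identifier that the gene name table pairs with ACTA1, on the plus strand over 46.3 kb, so that the listed feature runs well past the RefSeq gene of 3.037 kb and into the neighbouring gene CCSAP. ACTA1 had 34235 and 38013 reads in LW against 28416 and 33835 in MS, which is 4184 and 3823 RPM in LW against 3962 and 3606 in MS. The breeds overlapped on this scale. After TMM scaling, which sets libraries by the genes they share, the values were 3923 and 3967 in LW against 3829 and 3835 in MS, and edgeR's quasi-likelihood test gave a log2 difference of 0.04 (SE 0.01) with an adjusted p of 0.0129. Of the 317 genes listed in all libraries 271 passed this test, that is 85.5%, 43.5% higher in LW and 42.0% higher in MS, so passing it did not set a gene apart. The ACTA1 call was lost when libraries were scaled by total listed reads (adjusted p = 0.572), with genes listed in any library (0.848) and when LW replicate 2 (0.0589) or MS replicate 2 (0.0633) was left out. The reads most like those of ACTA1 across the 4 libraries, by the smallest distance of centred log2 values among 317 genes, were those of PDLIM3 (distance 0.013) and ASB2 (0.015).

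ACTC1 lies at chr1:136281119-136286551 on the plus strand. Its RNA had 649 reads in LW replicate 1 and 740 in LW replicate 2, and it was not listed in either MS library. The LW values were close to the lowest reads that the lists hold, and ACTA1 had 52.8 and 51.4 times as many reads in the same libraries. A gene missing from a library could lie well above the lowest listed reads elsewhere. TPM3 had 2704 to 3397 reads in 3 libraries and was not listed in LW replicate 1. Of the 102 genes listed in 3 of the 4 libraries, 61 had over 2000 reads in each of those 3. Their reads in the library that did not list them are not known. ACTC1 was 1 of 78 genes listed in both LW libraries and neither MS library, against 88 genes with the opposite pattern. With genes listed in any library and a missing entry counted as 0, edgeR gave ACTC1 an adjusted p of 0.0226, which rests on the listing, and ACTC1 was not among the genes tested otherwise.

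ACTN3 lies at chr2:5860386-5873779 on the minus strand. It had 6587 and 7111 reads in LW against 3916 and 4697 in MS, or 755 and 742 RPM after TMM scaling in LW against 528 and 532 in MS. Both LW libraries lay above both MS libraries, 1.41-fold on average (log2 difference 0.50, SE 0.02, adjusted p = 7.56e-05, edgeR). Non-overlap in this direction was found for 46.4% of all genes tested and in the other direction for 46.7%. Set against its relative ACTN2, the alpha-actinin present in all fibres, ACTN3 had 0.141 and 0.138 reads per ACTN2 read in LW against 0.0839 and 0.0855 in MS, a ratio within a library that needs no scaling between libraries. A single such value cannot give a p below 0.333 in an exact permutation test of 2 libraries against 2. The genes with reads most like those of ACTN3 on the same measure were MYOZ3 (distance 0.0099) and ZBTB16 (0.032).

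TPM1 lies at chr1:108986981-109016090 on the minus strand. It had the most reads of the 6 genes in LW and fewer than ACTA1 in MS, 43620 and 48025 in LW against 27954 and 33020 in MS. After TMM scaling these were 4998 and 5012 RPM in LW against 3767 and 3743 in MS, so that both LW libraries were higher, 1.33-fold on average (log2 difference 0.41, SE 0.01, adjusted p = 1.1e-05, edgeR). ITGA7 (distance 0.0089) and BIN1 (0.013) had the most similar values. The summed reads of the skeletal muscle fibre markers were higher in LW too, as given above, and their part in the ACTN3 and TPM1 differences was not tested. Most of that sum was TTN, the titin gene, with 914086 and 1016278 reads in LW against 697633 and 830738 in MS. The sum therefore does not show that each marker was higher in LW.

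TPM2 lies at chr1:236402249-236410390 on the minus strand and had 9670 and 10530 reads in LW against 9137 and 10951 in MS. In RPM the breeds overlapped, with 1182 and 1059 in LW against 1274 and 1167 in MS. After TMM scaling MS was higher, at 1231 and 1241 against 1108 and 1099 in LW, 1.12-fold (log2 difference −0.16, SE 0.01, adjusted p = 0.000685, edgeR). This call was lost with scaling by total listed reads (adjusted p = 0.52) and with all genes listed in any library (0.0686). A transcript known by identifier alone (distance 0.0097) and FKBP5 (0.022) had the most similar values. TPM1 had 4.51 and 4.56 reads for each TPM2 read in LW against 3.06 and 3.02 in MS, a mean ratio 1.49 times higher in LW. Per kb of listed gene TPM1 was above TPM2 in LW, at 164 against 144 and 149 against 129 RPM per kb, and below it in MS, at 120 against 155 and 108 against 142.

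TPM3 lies at chr4:95542329-95572946 on the plus strand. It had 3397 reads in LW replicate 2 and 2704 and 3103 in MS, or 342 RPM in LW replicate 2 against 377 and 331 in MS. The single LW value lay between the MS values, and TPM3 was not among the genes listed in all libraries. With genes listed in any library and LW replicate 1 counted as 0, its log2 difference was −1.05 (SE 3.83, adjusted p = 0.858, edgeR).

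The listed RNA of each gene was then followed along the DNA. The signal of an RNA on a 1-kb bin was read as the authors' background-corrected value, and how it was scaled was not tested. In LW replicate 1 ACTC1, with 649 reads, had 56525 units in all, and TPM1, with 43620 reads, had 54128. The signal was therefore taken to show where an RNA lay rather than how much of it there was. For ACTA1, ACTC1, ACTN3, TPM2 and TPM3 nearly all of the signal lay within 10 kb of the listed gene, with means over libraries of 97.5%, 99.5%, 97.3%, 95.2% and 97.8%. For ACTA1 this takes in its listed gene of 46.3 kb, and within 5 kb of its RefSeq ends the share was 75.1% to 78.8%. For TPM1 the share within 10 kb of the listed gene was 47.1% and 43.6% in LW against 55.7% and 50.9% in MS. Its remaining signal lay almost all elsewhere on chromosome 1, at 52.1% and 55.0% in LW against 44.1% and 47.9% in MS, and 0.25% to 1.42% lay on other chromosomes.

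**Figure D2:**
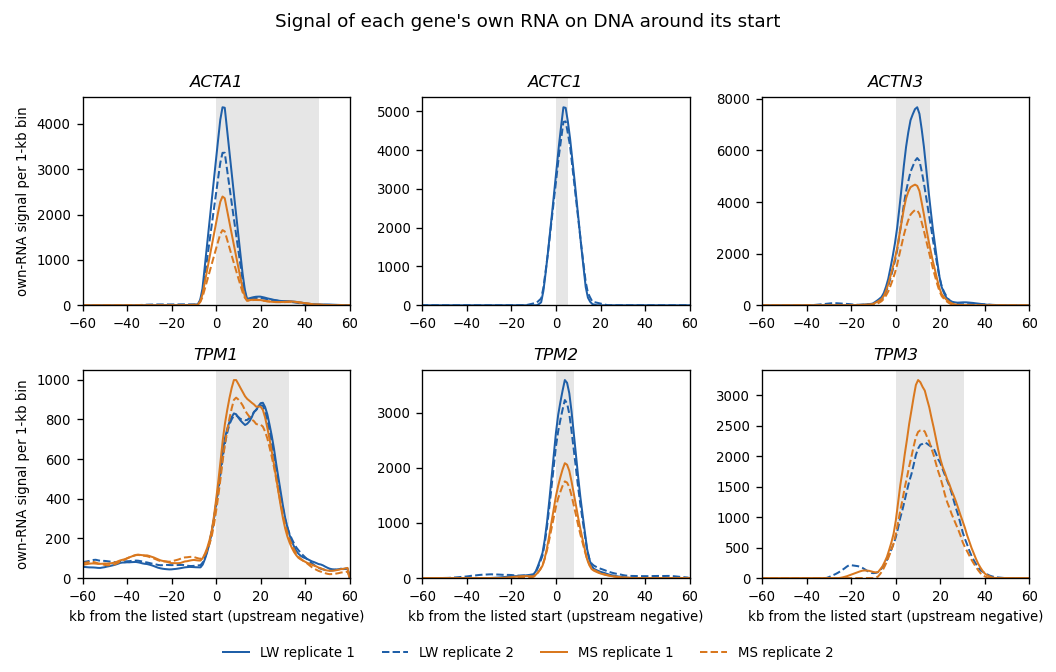
Signal of each gene's own RNA per 1-kb bin (vertical axis, linear from 0 with its own scale in each panel), by distance from the listed start in kb (horizontal axis), 1 line per GRID-seq library and the listed gene in grey. The signal of 5 genes falls to near 0 within a short distance of the gene, while TPM1 keeps a low signal across the whole window on both sides.

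Around TPM1 the signal was spread unevenly. Within 500 kb of the gene the side upstream of its start, which holds the gene TLN2 of a cytoskeletal linker protein, carried 17423 and 19379 units in LW against 17035 and 17316 in MS. The LW libraries lay above the MS libraries there, though the lower LW value and the higher MS value were close. The downstream side carried 11695 and 11266 units in LW against 5780 and 5466 in MS, 2.04 times more in LW. The number of 1-kb bins with TPM1 RNA on that side was 465 and 450 in LW against 247 and 246 in MS. Such a separation was common: of 304 RNAs with signal on that side, the LW libraries lay above the MS libraries for 62.8% downstream and for 47.0% upstream, and below them for 8.55% and 13.2%, and the median ratio of LW to MS was 1.39 downstream and 1.199 upstream. TPM1 RNA reads were also higher in LW, as given above, and their part in the number of bins was not tested.

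**Figure D3:**
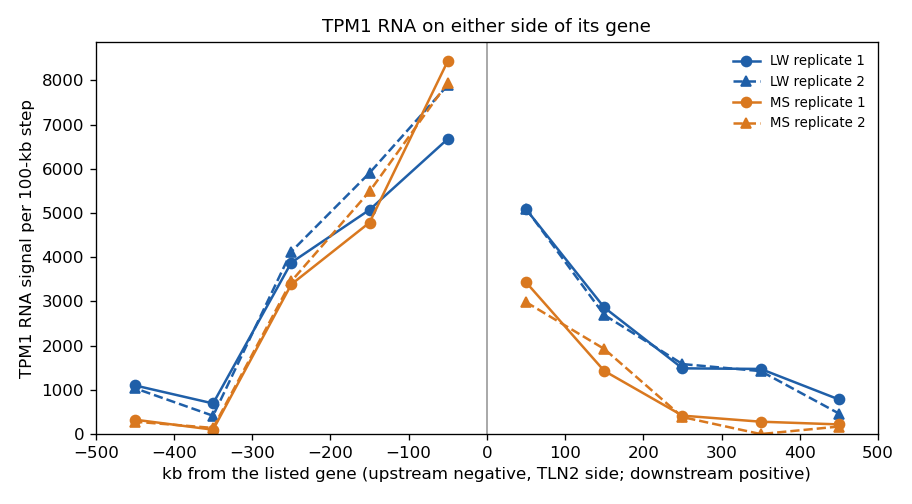
TPM1 RNA signal summed over 100-kb steps (vertical axis, linear from 0) by distance from the listed gene in kb (horizontal axis, upstream negative), 1 line per GRID-seq library. Upstream the lines of both breeds run together to 300 kb and then drop, and downstream the LW lines lie above the MS lines in each step.

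The block upstream of TPM1 was continuous in all libraries. Counted from 10 kb off the listed gene, it ran without a gap over 337 and 315 bins in LW and 301 and 303 bins in MS, into TLN2 and past MIR190A inside it. The steps of 100 kb from the gene held 12.3%, 9.37% and 7.17% of all TPM1 signal in LW replicate 1, and 17.7%, 10.0% and 7.08% in MS replicate 1. The fourth step held 1.28% and 0.71% in LW against 0.21% and 0.29% in MS.

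The far regions of the other genes were few. On its own chromosome beyond 10 kb ACTA1 RNA formed 11 regions over the 4 libraries, 8 of which overlapped a region of another library, over NUP133 on one side and over or before RAB4A on the other. ACTN3 RNA formed 13 regions, 10 of them recurring. ACTN3 RNA over RBM14 and RBM4, at 3087 units in LW replicate 1 and 2007 in LW replicate 2, was seen in LW only, and the region over BBS1 was seen in all 4 libraries. TPM2 RNA formed 9 regions, 8 recurring, over CCDC107 and ARHGEF39 on the downstream side and TLN1 on the upstream side in every library. TPM3 RNA formed 5 regions, over NUP210L downstream in all 3 libraries that listed it and over UBAP2L upstream in 2 of them. ACTC1 RNA formed 3 regions, none of them over a named gene.

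Regions on other chromosomes did not recur. TPM1 RNA formed 5 and 9 of them in LW against 1 and 5 in MS, and ACTA1 RNA 3 and 3 in LW against 1 and 2 in MS, while the other 4 genes formed none. None of these 29 regions overlapped a region of another library. Each was 22 to 28 bins wide. One of them placed TPM1 RNA over ACTN3 in LW replicate 1, with 79.8 units. On its own chromosome ACTA1 RNA covered the smooth muscle actin gene ACTA2, with 655 units, in LW replicate 1 and in no other library. Actin genes are near-identical in their coding parts, the authors removed ambiguously mapped read pairs, and whether the reads of these genes were told apart was not tested.

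The signal of all RNAs within 5 kb of each gene's ends was compared between breeds with limma after quantile normalization on the log2(value + 1) scale, which understates the change of low genes. The study's rule of a log2 difference above 2 with an unadjusted p under 0.05 was applied here with limma's p. Of 23749 genes 15.7% passed it, 7.46% higher in LW and 8.22% higher in MS. None passed an adjusted p of 0.05 with limma, where 3723 had an unadjusted p under 0.05. In simulated data no gene changed by 4 on the log2 scale passed the adjusted threshold in this comparison either. Of the 6 genes 1, ACTC1, passed the study's rule.

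ACTC1 had 52728 and 49987 units at its ends in LW, and no signal was listed there in either MS library. Here and below, a signal of 0 means that none was listed. Counted as 0, the missing MS signal gave an adjusted p of 0.109 (limma). This rests on the listing of its RNA, since its own RNA made up 52728 and 49979 of these units in LW. Without own RNA it was not called (adjusted p = 0.652). ACTA1 had 41390 and 31921 units in LW against 23171 and 16250 in MS, a log2 difference of 0.88 (SE 0.88, adjusted p = 0.66). ACTN3 had 95674 and 73122 in LW against 59467 and 46052 in MS (log2 difference 0.54, SE 0.85, adjusted p = 0.783). TPM2 had 43025 and 38753 in LW against 24789 and 21589 in MS (0.79, SE 0.85, adjusted p = 0.675). In ACTA1, ACTC1, ACTN3, TPM1 and TPM2 both LW libraries lay above both MS libraries, which was so for 16.4% of genes and the reverse for 20.4%.

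TPM1 had 10435 and 10069 units in LW against 9658 and 8973 in MS (log2 difference 0.18, SE 0.88, adjusted p = 0.945). TPM3 had 3.50 and 17066 in LW against 22326 and 15874 in MS, and its log2 difference of −5.54 (SE 4.02, adjusted p = 0.654) rested on the library that did not list its RNA. It was −0.23 without LW replicate 1 and −10.91, past the study's rule, without LW replicate 2.

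**Figure D4:**
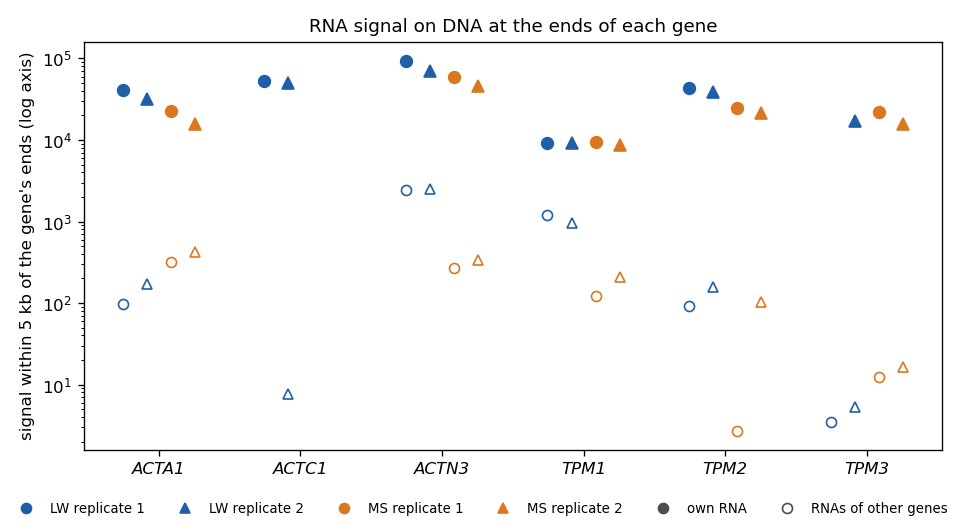
RNA signal within 5 kb of the ends of each gene (vertical axis, log scale) by gene (horizontal axis), 1 point per GRID-seq library, with own RNA filled and RNAs of all other genes open. Own RNA has more units than other RNAs at each gene where it was listed, though units of different RNAs do not compare amounts of RNA. Own RNA is higher in both LW libraries for ACTA1, ACTN3 and TPM2. Values of 0 and RNAs that were not listed are not drawn.

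Own RNA alone gave the same order for ACTA1, ACTN3 and TPM2, but not for TPM1. At its own ends it was 41294 and 31751 units in LW against 22854 and 15826 in MS for ACTA1, a mean 1.89 times higher in LW. For TPM2 it was 42934 and 38595 against 24786 and 21487, 1.76 times higher, and for ACTN3 93246 and 70637 against 59200 and 45715, 1.56 times higher. TPM1, with 9227 and 9104 against 9537 and 8766, overlapped between breeds. Over the 263 genes with own RNA at their ends in all libraries, the LW libraries lay above the MS libraries for 36.1% and below them for 24.3%, with a median log2 difference of 0.04. As a share of the RNA's whole signal, own RNA at the ends of ACTA1 was 78.8% and 75.7% in LW against 78.0% and 75.1% in MS. For TPM2 the share was 91.5% and 83.8% against 91.0% and 90.4%, and for ACTN3 79.4% and 77.7% against 82.6% and 83.2%. The whole signal of ACTA1 RNA was 52413 and 41952 units in LW against 29308 and 21074 in MS. That of TPM2 RNA was 46923 and 46036 against 27236 and 23759, and that of ACTN3 RNA 117480 and 90914 against 71651 and 54967. For TPM1 RNA it was 54128 and 58017 against 47801 and 48269. The part of these totals in the differences at the ends was not tested.

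In signal units RNAs of other genes made up a small part at these genes. As given above, units of different RNAs, here and below, do not compare amounts of RNA. At the ends of ACTN3 the RNAs of other genes summed to 2427 and 2485 units in LW against 267 and 337 in MS. Most of this in LW was RNA of RBM14, a nearby gene of an RNA-binding protein, at 2149 and 1661 units. RBM14 RNA was not listed on these bins in MS, although it was listed there with 3376 and 4284 reads. RNA of TNNT3, the fast troponin T, lay on the ends of ACTN3 in all 4 libraries, at 174 and 452 units in LW against 242 and 261 in MS. MYBPC2, a fast myosin-binding protein, was there in LW replicate 2 alone, at 162 units. With RNAs of other genes only, ACTN3 had a log2 difference of 2.50 (SE 0.97, adjusted p = 0.371, limma) and was not called, where 15.5% of genes passed the study's rule. LW libraries lay above MS libraries in this measure for 15.8% of genes.

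At TPM1 the RNAs of other genes summed to 1208 and 965 units in LW against 120 and 206 in MS. TLN2 RNA, at 1002 and 803 units, made up most of it in LW. TLN2 was itself not listed in MS, although it had 30410 and 33705 reads in LW. RNA of RORA, a nuclear receptor gene on the same chromosome, lay on TPM1 in all 4 libraries, at 88.0 and 99.6 units in LW against 92.0 and 149 in MS. RNA of U5, a spliceosomal RNA, lay there in LW only, at 89.7 and 21.7 units.

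At ACTA1 the order was the opposite, with other RNAs at 96.7 and 171 units in LW against 317 and 424 in MS (log2 difference −2.13, SE 0.94, adjusted p = 0.453). MS libraries lay above LW libraries for 20.5% of genes. ACTN2 RNA had the largest sum over the libraries, at 18.6 units in LW replicate 2 and 230 and 47.6 in MS. It was the largest of them in MS replicate 1 alone. The next by that sum was MYO18B, an unconventional myosin, at 0.52 and 65.2 units in LW and 104 in MS replicate 2. In MS replicate 2 the RNAs listed as LDB3 and OPN4 had the same 93.8 units and the same 36404 reads, and both count in the sum. Whether they are the same reads listed under different names was not tested. At TPM2 other RNAs summed to 91.0 and 158 units in LW against 2.67 and 103 in MS. Summed over the libraries, U4, U5 and ASPDH led there. At TPM3 other RNAs came to 16.4 units at most, led in the same sum by 2 transcripts known by identifier and by TTN, the gene of titin. At ACTC1 the only other RNA was RORA, at 7.68 units in LW replicate 2.

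H3K27ac loops were counted at each gene, each with a strength of −log10 of its FDR, and the loop score of a gene is their sum. With anchors within 1 kb, ACTA1 and TPM2 had the highest loop scores of the 6 genes, at or above the 86.5th percentile of genes with a loop in each library. ACTA1 had 4 and 5 loops in LW against 4 and 4 in MS, with scores of 51.7 and 154 in LW against 55.1 and 151 in MS. TPM2 had 5 and 13 loops in LW against 4 and 10 in MS, with scores of 50.7 and 152 in LW against 34.4 and 203 in MS. In both genes replicate 2 scored higher in both breeds and the breeds overlapped.

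ACTN3 had 1 and 4 loops in LW against 1 and 3 in MS, with scores of 5.53 and 28.3 against 3.62 and 19.2. ACTC1 had 2 and 3 loops in LW against 1 and 1 in MS, with scores of 8.15 and 28.8 against 2.34 and 3.88. TPM3 had 1 loop in LW replicate 1, with a score of 4.04, none in LW replicate 2, and 2 and 1 in MS, with 6.88 and 3.10. TPM1 had 1 loop in LW replicate 1 and none elsewhere within the 1-kb window.

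None of the 6 genes passed a threshold in the loop comparison. The study's rule here means its thresholds, a log2 difference above 1.5 with an unadjusted p under 0.05, applied to limma's p. The study itself took p from DESeq2 and scored active promoters, a different set of genes. Of 15431 genes 5.33% passed the rule with limma, 2.83% higher in LW and 2.5% higher in MS, and 246 passed with DESeq2. No gene passed an adjusted p of 0.05 with limma, where 822 had an unadjusted p under 0.05, and no gene changed by 4 on the log2 scale did so in simulated data. The log2 difference was 1.601 for ACTC1 (SE 0.99, adjusted p = 0.992), −1.93 for TPM3 (SE 0.89, adjusted p = 0.992) and between −0.27 and 0.10 for the other 4 genes. Both LW libraries of ACTC1 lay above both MS libraries, which was so for 21.1% of genes, and the reverse for 7.02%. With 1 library left out the ACTC1 difference ran from 0.60 without LW replicate 2 to 2.79 without LW replicate 1. ACTC1 passed the study's rule when anchors within 5 kb were taken (log2 difference 2.30, SE 0.78, adjusted p = 0.793). TPM3 passed it without LW replicate 1 (−2.61). Summed loop scores of 4 fibroblast markers, all 4 with a loop in LW and 3 or 4 in MS, were 158 to 184 in LW and 100.2 to 104 in MS. Those of 2 satellite cell markers were 14.6 to 22.9 in LW and 0 in MS, those of 3 endothelial markers 33.2 to 67.7 and 67.1 to 139, and those of 2 immune markers 26.4 to 30.2 and 44.9 to 45.4. For 10 skeletal muscle fibre markers the sums overlapped, at 597 to 1083 in LW and 623 to 716 in MS. For 4 smooth muscle markers they overlapped too, at 73.1 to 92.6 and 62.6 to 87.9. Of the heart muscle markers only TNNT2 had a loop, at 4.26 to 5.13 in LW and 7.22 to 9.62 in MS. Adipocyte markers had 0 in LW and 0 to 2.20 in MS, and red blood cell markers had no loop. The part of these cells in the loop values was not tested.

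**Figure D5:**
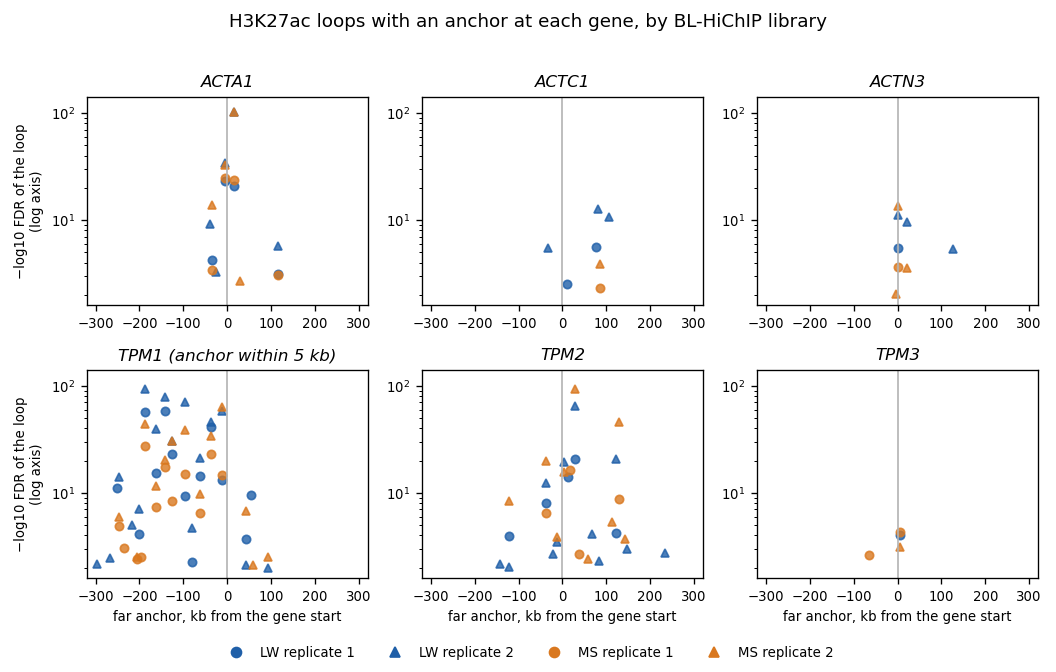
Strength of each loop as −log10 FDR (vertical axis, log scale) by the distance of its far anchor from the gene start in kb (horizontal axis, upstream negative), 1 point per loop and BL-HiChIP library. The loops of TPM1, shown for anchors within 5 kb, reach to the upstream side, those of TPM2 lie on both sides, and the loops of 770 kb at ACTN3 and 610 kb at TPM2 are not drawn.

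TPM1 was the gene for which the window mattered most. Of its 24 loops with anchors within 5 kb of its ends 22 started from the 5-kb bin chr1:109010001-109015000, whose edge lies 1.09 kb inside the RefSeq start and therefore just outside the 1-kb window. In this wider window TPM1 had 13 and 16 loops in LW against 12 and 13 in MS, with scores of 262 and 478 in LW against 133 and 272 in MS. The breeds overlapped (log2 difference 0.71, SE 0.67, adjusted p = 0.998, limma). Of its 24 different loops 20 went upstream, away from the gene body and towards TLN2, and 4 went the other way.

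Of these loops 8 were called in all 4 libraries. They spanned 15 to 190 kb, all upstream, and only the one at 40 kb ended at a gene end, that of LOC102163170. The summed strength of the 8 was 232 and 439 in LW against 120 and 252 in MS. In 5 of the 8 both LW libraries were stronger than both MS libraries, where this was so for 22.8% of all 4632 loops called in all libraries and the reverse for 9.39%. The loop of 190 kb had a strength of 57.0 and 92.9 in LW against 27.4 and 44.2 in MS. The loop of 145 kb had 57.6 and 79.2 in LW against 17.3 and 20.4 in MS. These loops share the anchor at TPM1 and are not independent of each other. The far anchors of all 24 loops were also set against the RNA: all 22 far anchors outside the gene, on both sides, held TPM1 RNA in each library, and so did all 50 other 5-kb bins in the same span. The median signal was 249 and 264 on the anchors in LW and 230 and 206 in MS, beside 245 and 283 on the other bins in LW and 213 and 212 in MS. Anchors were thus the higher in replicate 1 and the lower in replicate 2 of each breed.

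ACTA1 had 2 loops that were called in all 4 libraries. One went 15 kb downstream to a bin without a gene end, with a strength of 21.0 and 102 in LW against 23.7 and 102 in MS. The other went 5 kb upstream to the end of NUP133, a nuclear pore gene, with 23.4 and 34.4 in LW against 24.8 and 32.6 in MS. One more, to a bin 35 kb upstream inside NUP133, was called in 3 libraries. A loop of 115 kb to RAB4A was called in both LW libraries, and one from the next bin to the same place in MS replicate 1.

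TPM2 shared 7 loops between breeds. Its loop of 25 kb to the ends of CCDC107 and ARHGEF39 was called in 3 libraries, with a strength of 20.5 and 64.2 in LW and 94.1 in MS replicate 2. Its loop of 125 kb to NPR2, SPAG8 and HINT2 was called in 3 libraries with 3.96 and 2.03 in LW and 8.34 in MS replicate 2. Its strongest loops to the body of RUSC2 ended in neighbouring bins, 120 kb away with 4.18 and 20.8 in LW and 125 kb away with 8.81 and 45.9 in MS. A loop of 610 kb to DNAJB5 was called in the second replicate of each breed.

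At ACTN3 the loop of 15 kb that joins both ends of the gene, beside ZDHHC24, was called in all 4 libraries with 5.53 and 11.05 in LW against 3.62 and 13.6 in MS. The loop of TPM3 to the next bin inside the gene was called in 3 libraries, at 3.10 to 4.27. At ACTC1 no loop was called in both breeds. Its MS loop ended 85 kb away, and of its 5 LW loops those of 75 and 80 kb ended in the bins just before that. The other LW loops spanned 5, 35 and 105 kb, the one of 35 kb on the upstream side. Over the 6 genes 13 loops were called in both breeds, which is 40.6% of the 32 LW loops and 54.2% of the 24 MS loops, and 7 of the 13 were at TPM2, 3 at ACTA1, 2 at ACTN3 and 1 at TPM3. Counting an anchor in the next bin as the same gave 19. No such share over all loops is given beside these, so they do not set the 6 genes apart.

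The other genes of the thin filament and its regulators were taken as a list of 23. Of these 12 were listed as RNAs in all 4 libraries, and all 12 passed edgeR's test, 3 higher in LW and 9 higher in MS, beside 43.5% and 42.0% of all genes. Their median log2 difference was −0.21, against −0.02 over all genes tested. NEB, the gene of the thin filament ruler nebulin, had 155425 and 171935 reads in LW against 82103 and 97784 in MS (log2 difference 0.69, adjusted p = 6.69e-06). MYOZ3, a fast-fibre Z-disc protein, and CFL2, the muscle cofilin that severs actin, were also higher in LW, by 0.49 and 0.45. NRAP, which binds actin during myofibril assembly, had 15026 and 16640 reads in LW against 22813 and 27337 in MS (−0.84, adjusted p = 6.69e-06). KLHL40 (−0.56), which stabilizes thin filament proteins, the slow troponin TNNT1 (−0.54) and the actin nucleator LMOD2 (−0.52) were higher in MS. TNNI2 (−0.25), TNNC2 (−0.21), MYOZ1 (−0.20), TMOD4 (−0.18) and TNNT3 (−0.07) were higher in MS by less, and these 5 lost the call when libraries were scaled by total listed reads. TNNC2 also lost it without LW replicate 2 and TMOD4 without MS replicate 2.

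In the signal at gene ends 5 of the 23 genes passed the study's rule, 1 in LW and 4 in MS, beside 7.46% and 8.22% of all genes. CAPZA2, a subunit of the actin capping protein, had 2698 and 3655 units in LW against 0 and 0.84 in MS (adjusted p = 0.109, limma). KLHL41 had 26.3 and 67.6 in LW against 22042 and 21013 in MS, TNNC1, the slow troponin C, 95.7 and 29.8 against 19375 and 30507, and XIRP1, an actin-binding repeat protein, 0 and 147 against 105628 and 75940. The RNAs of these 3 genes were listed in MS only. LMOD1 had 16.2 and 24.3 units in LW against 282 and 681 in MS. With RNAs of other genes only the called genes were CAPZA2, LMOD1 and NRAP, and without either MS replicate they were CAPZA2, KLHL41 and LMOD1. The median log2 difference of the list was 0.08, against −0.07 over all genes. In the loop score none of the 23 passed, with a median of 0.02, as over all genes, and the smallest p values were those of CAPZA1 (0.0757), TNNT1 (0.194) and KLHL40 (0.224).

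Of 8 relatives of the 6 genes, 3 were listed in all libraries and were higher in MS. ACTN2 differed by −0.22 on the log2 scale, ACTN4 by −0.21 and ACTB, the cytoplasmic actin, by −0.15 (adjusted p = 8.24e-05, 0.000876 and 0.00499, edgeR), and none of the 3 passed when libraries were scaled by total listed reads. In the signal at gene ends ACTG1, the other cytoplasmic actin, had 375 and 945 units in LW against 10414 and 11430 in MS (adjusted p = 0.187, limma) and TPM4 had 0 and 0 against 71.8 and 31.6. Both passed the study's rule, TPM4 no longer when either LW replicate was left out, and no relative passed it in the loop score. ACTN3 was higher in LW and ACTN2 in MS, and the ratio of their reads was 1.65 times higher in LW.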

How the data were processed

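For BL-HiChIP the authors trimmed the linker with ChIA-PET2, mapped reads with BWA-MEM to Sscrofa11.1, removed duplicates with Pairtools and called loops per library in 5-kb bins with FitHiChIP. The deposited value per loop was read as an adjusted p-value (FDR), since the lists end just under 0.01. For GRID-seq the authors mapped both read ends with Bowtie2, kept chromatin-enriched RNAs and corrected for background. The authors deposited, without column names, a count of RNA reads per RNA and a signal per RNA and 1-kb bin, and both readings rest on the values. The labels describe DSG and formaldehyde fixation for GRID-seq and the methods formaldehyde alone. Versions in the submitters' processing notes are Trim Galore 0.4.5, Bowtie2 2.2.5, SAMtools 1.9 and MACS2 2.1.2.

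Genes were placed with RefSeq coordinates on Sscrofa11.1 that hold no strand, so both gene ends stood in for the start, and strands and gene starts came from the lists. RNAs were matched by name, by Ensembl identifier (79 of 2420 entries) or by lying inside a gene (265). Pairs of RNA and bin listed more than once were summed. The 2 loops with an FDR of 0 were set to the smallest other FDR. Loop scores and signals were quantile-normalized and compared on the log2(value + 1) scale with limma 3.58.1 (R 4.3.3). The thresholds of the study's rules were applied to limma's p-values, whereas the study used DESeq2 for its loops. Reads of genes listed in all 4 libraries were compared with edgeR 4.0.16 (quasi-likelihood, TMM, library size the total of listed reads). Adjusted p-values follow Benjamini-Hochberg. The tests were tested on simulated data, where edgeR called 99.5% of genes changed by 1 on the log2 scale. Python 3.11.15, numpy 2.4.6, pandas 2.3.3 and matplotlib 3.10.9 did the rest.

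The genes, lists and tests were chosen with earlier results of these data known. All 6 genes are named whatever their values. Of the list of 23 thin filament genes and the 8 relatives, those called are named, or the 3 of smallest p. Also named are genes at far anchors of loops in at least 3 libraries, the 3 RNAs of other genes with most signal at each gene (1 of them is not reported here), and the 2 genes of most similar reads. Other genes were named after their values were seen, because a region or loop covers them or, for LDB3 and OPN4, because their values are the same. The alternatives were no or another normalization (RLE, total listed reads), a pseudocount of 0.1, other windows, a stricter FDR of 0.001, filters on low genes, DESeq2 1.42.0, a replicate block and leaving out each library. No sequence was used.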

Additional observations from a re-analysis of the deposited data

How the results depend on the processing

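The number of genes past the study's rule in the loop score, 822, was 1388 with a pseudocount of 0.1, 246 with DESeq2 and 1289 with the replicate block, and 836 to 1594 with 1 library left out (1461 without LW replicate 1, 1594 without MS replicate 2). Without normalization 76.9% of the called genes were higher in LW, against 53.0% with it. In the signal the range was 4415 to 5240 with 1 library left out, beside 3723. In the reads 252 to 262 genes were called with 1 library left out and 171 with scaling by total listed reads, beside 271. The cause of these shifts was not tested.

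Loop differences of the 6 genes changed direction 9 times, each time without passing a threshold. With 1 library left out, ACTA1 ran from −0.85 to 0.38 (0.38 without LW replicate 1 and 0.22 without MS replicate 2), ACTN3 from −1.15 without LW replicate 2 to 1.47 without LW replicate 1 (−1.04 without MS replicate 1), TPM1 from −0.41 without MS replicate 1 to 0.41, and TPM2 from −1.24 to 0.90 (0.55 without LW replicate 1 and 0.90 without MS replicate 2). TPM1 was −1.25e-05 with DESeq2 and TPM2 0.064 without normalization. In the signal TPM1 ran from −0.11 to 0.45 (−0.03 with LW replicate 1 left out), and ACTA1 was −2.13 with RNAs of other genes only. No read difference of the 4 genes tested changed direction.

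The loops called in both breeds, 13, were 24 with anchors within 5 kb, where TPM1 adds its loops, 3 when called in both libraries of a breed, and 6 to 12 with 1 library left out (8 without LW replicate 2, 6 without MS replicate 2). The share of signal within 10 kb became 43.2%, 82.3%, 51.6%, 4.55%, 41.7% and 77.6% of the bins for ACTA1, ACTC1, ACTN3, TPM1, TPM2 and TPM3. Within 5 kb it was 92.0%, 95.3%, 89.2% and 95.9% for ACTC1, ACTN3, TPM2 and TPM3. With 1 library left out it ran from 96.4% to 98.4% for ACTN3 and from 96.7% to 99.2% for TPM3.

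Libraries of the same number deviated together in reads (correlation 0.75 across genes) and loops (0.35) but not in signal (−0.01). With 2 pairs they share only a number. With the replicate block the signal gave 2569 calls and the reads 278, and among the 6 genes it brought TPM3 (−1.93) past the study's rule in the loop score. What set the listing of an RNA was not tested. In loops and signal no gene passed an adjusted p of 0.05 in any setting that kept all 4 libraries. The smallest adjusted p there was 0.0682, in the signal without normalization (limma).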
